A study of Mus musculus with 6 samples.

Results

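The epithelial junction and polarity genes were 39 genes chosen by name, 6 of the adherens junction, 7 of the tight junction, 11 claudins, 10 of the desmosome and 5 of the polarity complexes. Among the 34745 genes of the expression table, 38 of them were found by symbol, and Nectin2 was found by its gene ID (ENSMUSG00000062300) under its older symbol, Pvrl2. Their RNA was measured in MLE-12 cells, a mouse lung epithelial line that was immortalized with a viral large T antigen. Cells of the NR4A1 overexpression group (3 libraries) were transfected with pCMV-SPORT6 carrying the mouse open reading frame of the nuclear receptor NR4A1 behind the CMV promoter, and the control group (3 libraries) received the empty pCMV-SPORT6 vector. Both groups shared the cell line, the lipofection and the plasmid backbone, and the share of cells that took up plasmid is not given in the sources used here. The sources do not state that the 3 libraries of a group came from separate cultures, so the p-values measure only the spread between these libraries, which may be technical. In RNA from a whole culture, fewer cells of a type and less RNA per cell cannot be told apart. The comparison asks which junction and polarity genes differed in RNA level after NR4A1 overexpression, in cells where the study followed markers of epithelial-mesenchymal transition.

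Epithelial cells hold together through 3 kinds of contact. Adherens junctions join cells through E-cadherin and its catenins, tight junctions seal the space between cells through claudins and the MARVEL proteins, and desmosomes tie keratin filaments to the membrane through desmosomal cadherins and the plaque proteins below them. The Par, Crumbs and Scribble complexes place these contacts along the apical to basal axis, and in the alveolus the sealed layer keeps fluid out of the air space.

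The libraries held 15019038 to 17574340 counts each. A floor of 3 counts therefore equals 0.171 to 0.200 CPM (counts scaled to a common library total), and it covers counting error only. Nr4a1 itself had 50660, 60093 and 68555 counts with the NR4A1 plasmid and 428, 510 and 463 counts with the empty vector. The epithelial label held for Krt8 and Krt19, with 2767 to 9551 counts in every library, and for the alveolar type 2 genes Sftpc, Sftpb, Abca3 and Nkx2-1, with 189 to 2272 counts, whereas Epcam, Krt18 in 5 of 6 libraries, the type 2 genes Sftpa1, Sftpd and Lamp3 and the club cell genes were at or near 0. The alveolar type 1 genes Ager, Hopx, Pdpn and Aqp5 were also counted in every library, with 418 to 2255 counts. Dcn, a gene of the fibroblast list, had 14138 to 17269 counts in every library, above Krt19. NR4A1 replicate 2 stood apart from the other libraries. Its summed level of 6 smooth muscle markers was 97.0 CPM against 0.963 to 2.08 CPM elsewhere, that of 8 endothelial markers was 96.2 CPM against 13.2 to 15.8 CPM, and that of 8 fibroblast markers was 1552 CPM against 946 to 1069 CPM, with all 6, 7 of 8 and 5 of 8 of these genes highest there. Vector replicate 1 also had more of some of these RNAs, with 284 counts of Col1a2 and 25 of Thy1 against 10 to 45 and 0 to 3 in the libraries other than NR4A1 replicate 2. The part of these RNAs in the member values was not tested, and log2 fold changes without NR4A1 replicate 2 are given below for the members they moved most.

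Levels of the members ranged widely. On the deposited FPKM scale, which divides counts by gene length and library total, 11 of the 39 genes had a mean of at least 10 in the control group, 12 lay between 1 and 10, 13 were under 1 but above 0, and 3 were listed at 0. Ctnna1, the alpha-catenin that links cadherins to actin, was the highest at 189.6 FPKM ± 3.51 (SD, n = 3), followed by F11r, the adhesion molecule JAM-A, at 72.1 ± 0.940. Next came the desmosomal plaque gene Ppl at 29.7 ± 2.02, the polarity gene Scrib at 26.6 ± 1.66, the tight junction scaffold Tjp1 (ZO-1) at 24.6 ± 3.48 and the plaque gene Jup (plakoglobin) at 23.6 ± 1.55. Of Ppl, Scrib, Tjp1 and Jup, every pair except Ppl and Jup differed by less than the sum of their SDs. E-cadherin (Cdh1) stood 14th of the 39 at 6.39 FPKM ± 0.159, close to the 5.20 FPKM ± 0.438 of N-cadherin (Cdh2), which is no member. The order depends on the gene length. With merged exon lengths of the GENCODE M21 annotation, Ctnna1 and F11r kept ranks 1 and 2, but p120-catenin (Ctnnd1) stood at rank 3 instead of 9 and Cldn12 at rank 14 instead of 20.

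**Figure D1:**
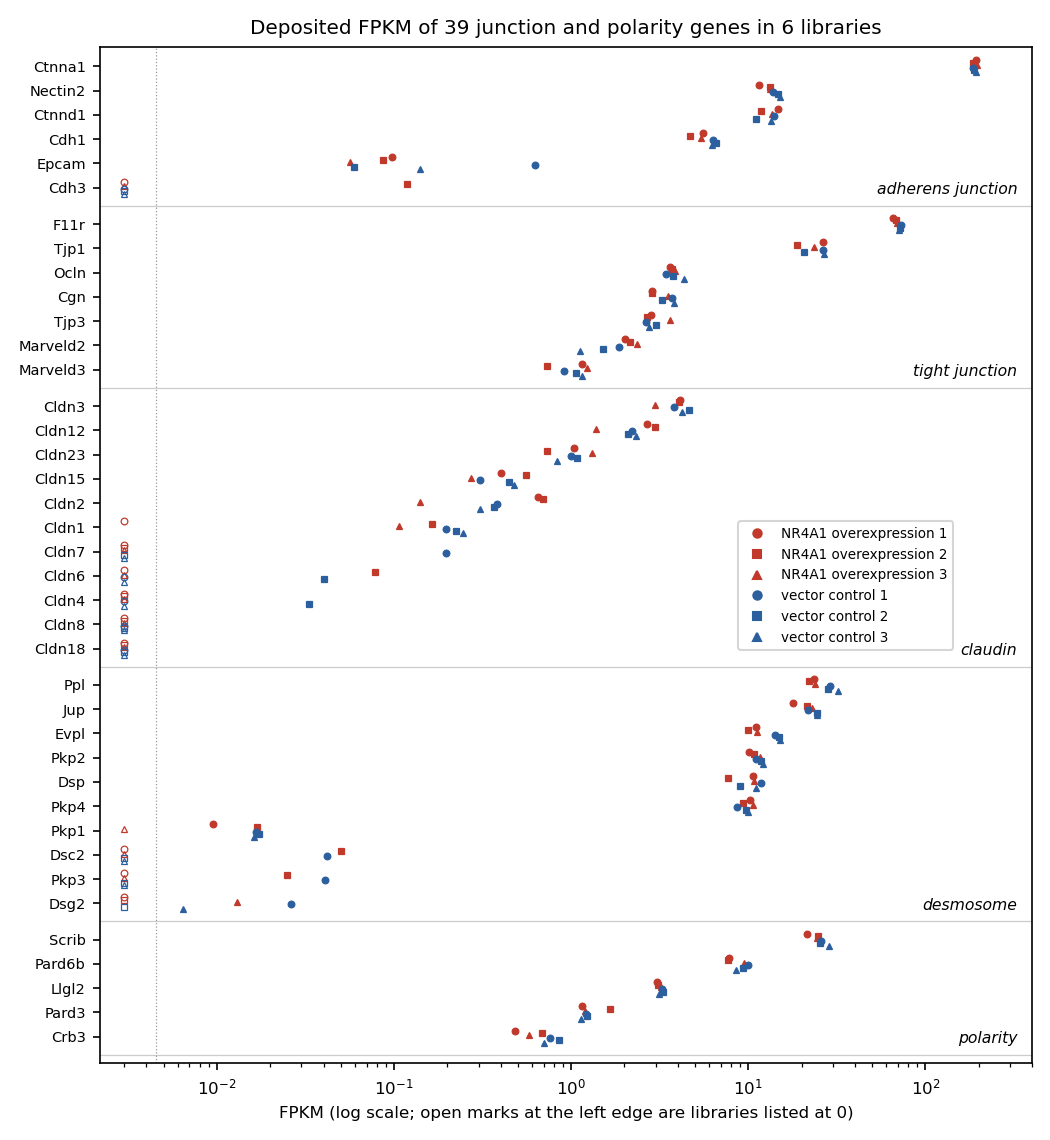
Deposited FPKM (log scale) of the 39 genes in each of the 6 libraries, by class and in falling order of the control mean, with red marks for NR4A1 overexpression, blue marks for vector control and open marks at the left edge for libraries listed at 0. Ctnna1 stands at the top with 189.6 FPKM in the control group, while 13 genes lie under 1 FPKM and 3 are listed at 0 there.

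The desmosome genes differed widely in level. Except for Pkp1 and Pkp3, the plaque genes, which sit inside the cell below the cadherins, were well counted in all 6 libraries. Jup had 2498 to 4021 counts, Ppl 2226 to 3531 and Pkp4 1685 to 2088. Dsp had 1392 to 2183, Evpl 1064 to 1688 and Pkp2 924 to 1301. The desmosomal cadherins, which span the membrane and make the contact, were nearly absent. Dsg2 was counted 0, 0 and 2 times in NR4A1 replicates 1 to 3 and 4, 0 and 1 times in vector replicates 1 to 3, and Dsc2 0, 7 and 0 times against 6, 0 and 0 times. Among the cadherins outside the members, Dsg1a, Dsg3, Dsg4, Dsc1 and Dsc3 had at most 3 counts in any library. Among the plakophilins, which are plaque genes, Pkp2 and Pkp4 were well counted, but Pkp1 and Pkp3 had 5 counts or fewer. Pkp1 had 1, 2 and 0 counts in the NR4A1 libraries and 2 in each control library.

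Of the 11 claudins, the strands of the tight junction, Cldn3 and Cldn12 were the highest. Cldn12 had 353 to 742 counts per library and 2.21 FPKM ± 0.124 in the control group. Cldn3 was at 4.22 FPKM ± 0.386, with 78, 87 and 65 counts in the NR4A1 overexpression group and 83, 96 and 94 counts in the control group. Cldn4, which lies near it on chromosome 5 (chr5:134945119-134946934 against chr5:134986214-134987472 for Cldn3, GRCm38), had 1 count in vector replicate 2 and 0 elsewhere. With the GENCODE M21 exon lengths Cldn12 stood above Cldn3, at 7.69 against 4.20 CPM per kilobase in the control group, so their order depends on the length used. Cldn18, the claudin known for alveolar epithelium, and Cldn8 had 0 counts in all 6 libraries, and Cldn6 had at most 2.

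Several of the sparse genes owed their counts to 1 library. Epcam, a membrane glycoprotein of epithelial cells that steadies claudins, had 22 counts in vector replicate 1, 2 and 5 in the other control libraries, and 3, 3 and 2 in the NR4A1 overexpression group. Cldn7, the claudin that binds Epcam, had 11 counts in vector replicate 1 and 0 in the other 5 libraries. Vector replicate 1 was the highest library for 4 of the 11 genes that were too low to test, and NR4A1 replicate 2 was the highest for 3 of them, including Cdh3 (P-cadherin), with 8 counts there and 0 elsewhere. In the plot of these counts no gene is high in all libraries of a group. Both libraries also held more Col1a1, Col1a2 and Thy1 than the rest, and whether these go with the sparse junction counts was not tested.

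**Figure D2:**
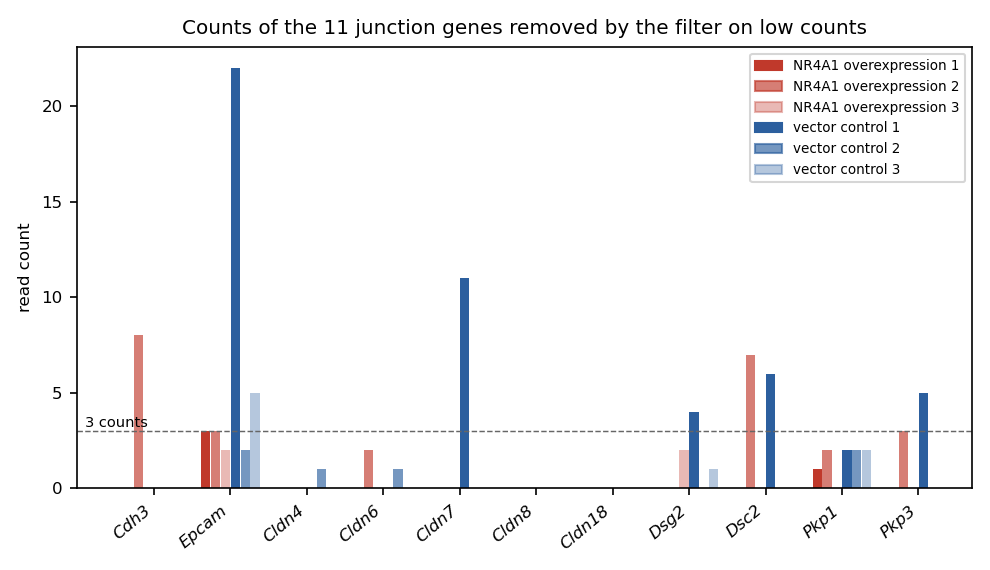
Read counts of the 11 genes removed by the filter on low counts, one bar per library (red shades for NR4A1 overexpression replicates 1 to 3, blue shades for vector control replicates 1 to 3), with a dashed line at 3 counts. The tallest bars, Epcam at 22 and Cldn7 at 11, belong to vector replicate 1, and Cldn8 and Cldn18 have no bar.

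The promoters of the members were searched for the letters CAGGTG on both strands (CACCTG on the other), an E-box that the Snail and Zeb repressors of epithelial genes bind. RefSeq windows of GRCm38.p6, 250 bases before to 50 bases after a start, matched 24 of the 39 members by symbol. The members without a window were not searched. At least 1 match was found for 15 of the 24 (62.5%), against 6098 of 27025 genes (22.6%) with a window. Cdh1 was not among the genes with a match, which does not show that its promoter lacks these letters. Among genes tested for expression, 11 of 19 members (57.9%) and 1911 of 9422 genes (20.3%) held one. In the 250 bases before the start alone, 12 of 24 members (50%) held the letters, against 19.4% of all genes, and so did 8 of the 19 tested members (42.1%), against 17.7% of the tested genes. The letters AAAGGTCA, the response element that NR4A1 binds as a monomer, were in 0 of the 24 member windows and in the windows of 1.70% of all genes. At a share this low, 0 matches in 24 windows does not set the members apart. None of the NR4A1 sites that the study predicted in the Ereg promoter holds these exact letters, so the search can miss sites. Neither motif contains the other, and a match describes the letters only. Shown here are the matches of the genes that mark the range of levels, the nearly silent Epcam, Cldn4 and Cldn7, the counted Cldn3, Ocln and F11r, and Marveld2, with the 6 letters in capitals. Where a gene held more than 1 match (Epcam, Cldn4, Cldn7 and Ocln), the nearest before a start is shown, each 5′ to 3′ on the strand of the gene. Distances count from the start of the RefSeq window that held the match, and a gene can have more than 1 window. The Ocln and Cldn7 stretches lie before starts that are inside the gene spans of the expression table, so these stretches lie inside those spans too. The other Ocln match was counted from a different start.
Epcam, 19 bases before the start (chr17:87635948-87635977, plus strand): acccataaaaccCAGGTGtggaggagaagc
Cldn4, 14 bases before the start (chr5:134946931-134946960, minus strand): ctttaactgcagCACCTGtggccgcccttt
Cldn7, 57 bases before the start (chr11:69965352-69965381, plus strand): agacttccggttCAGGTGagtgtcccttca
Cldn3, base 32 of the transcript (chr5:134986233-134986262, plus strand): caaagccacaggCAGGTGcaggggcagtct
Ocln, 68 bases before the start (chr13:100552549-100552578, minus strand): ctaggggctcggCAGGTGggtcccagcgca
F11r, 122 bases before the start (chr1:171437427-171437456, plus strand): agttcggggttgCACCTGcgtacggtgagt
Marveld2, base 17 of the transcript (chr13:100616911-100616940, minus strand): ccggcggccgcgCAGGTGagtggggccgcg
These matches occur in well counted genes such as F11r as well as in genes near 0. Of the regulators known to read this box, Zeb1 was at 41.8 CPM in the NR4A1 overexpression group and 42.4 CPM in the control group. Zeb2 was at 43.91 CPM in the NR4A1 overexpression group and 30.65 CPM in the control group. Snai1 had 131 counts in NR4A1 replicate 2 and 39 to 84 in the other libraries. Snai2 had at most 4 counts outside NR4A1 replicate 2, where it had 45.

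For the comparison of the groups, the counts were tested with edgeR's quasi-likelihood test over the 12941 genes that passed the filter on low counts. Of the 39 members, 28 passed this filter and 11 did not (Cdh3, Epcam, Cldn4, Cldn6, Cldn7, Cldn8, Cldn18, Dsg2, Dsc2, Pkp1 and Pkp3). With the threshold set at 0.05 for the adjusted p and at 2-fold for the change, 0 of the 28 members were higher and 0 were lower after NR4A1 overexpression, where 0.170% of all tested genes (22 genes) were higher and 0% were lower. With the unadjusted p under 0.05 and a 2-fold change, again 0 members were called in either direction, against 1.11% of all tested genes higher and 0.131% lower. With the unadjusted p alone, 1 member was higher (Marveld2, against 4.02% of all tested genes) and 3 were lower (Cdh1, Ppl and Evpl, 10.7% of the members against 2.44% of all tested genes). DESeq2 also called 0 members past the threshold.

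The changes of the members were bounded about as closely as those of all tested genes. The 95% confidence interval of the fold change stayed within a 2-fold change either way for 25 of the 28 members, and within a 1.5-fold change for 18, against 11069 and 8839 of the 12941 tested genes. The 3 with wider intervals were Marveld2, Cldn1 and Cldn2. The log2 fold change was below 0 for 17 of the 28 members (60.7%) and for 48.1% of all tested genes, and its median was -0.07 for the members and 0.01 for all tested genes. The 3 libraries of a group did not overlap those of the other for 9 members. Marveld2 was higher in all 3 NR4A1 libraries (1 of 28, against 6.69% of all tested genes), and Cdh1, Nectin2, F11r, Cldn1, Ppl, Evpl, Crb3 and Scrib were lower in all 3 (8 of 28, 28.6%, against 6.22% of all tested genes).

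**Figure D3:**
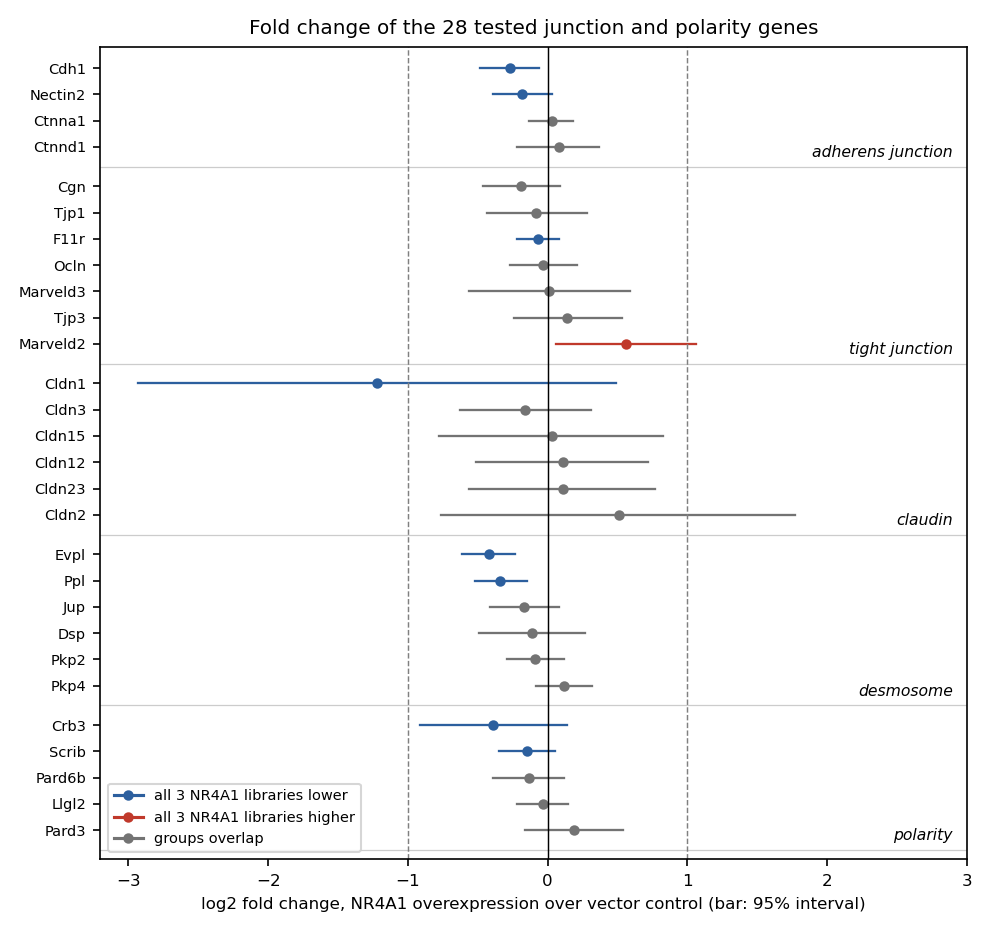
Log2 fold change (NR4A1 overexpression over vector control) of the 28 tested genes by class, with 95% confidence intervals as bars and dashed lines at a 2-fold change either way. Blue marks genes with all 3 NR4A1 libraries below the control libraries, red the opposite and grey an overlap; 25 of the 28 bars lie between the dashed lines, and Cldn1 has the widest.

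In the adherens junction, E-cadherin was lower in every NR4A1 library, without passing the threshold, and its alpha and p120 catenins overlapped between the groups. Cdh1 (chr8:106603351-106670246, plus strand), the cadherin that defines epithelial contact, measured 31.1, 26.2 and 29.7 CPM in NR4A1 replicates 1 to 3 and 34.8, 35.7 and 34.3 CPM in vector replicates 1 to 3. Every NR4A1 library lay below every control library, with NR4A1 replicate 2 the lowest. The log2 fold change was -0.27 (standard error 0.0887, 95% interval -0.48 to -0.06), 0.829-fold of the control level, with an edgeR p of 0.0181 before and 0.639 after adjustment. Without NR4A1 replicate 2 it was -0.20 and its unadjusted edgeR p was 0.0525.

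Nectin2, an immunoglobulin-like adhesion receptor, was at 40.1, 45.9 and 45.6 CPM against 47.4, 50.01 and 51.6 CPM, without overlap and with a log2 fold change of -0.18 (adjusted p = 0.822, edgeR). Ctnna1 was at 720.8, 689.1 and 721.1 CPM against 687.6, 690.6 and 712.0 CPM, and its groups overlapped. Its log2 fold change of 0.03 had a 95% interval from -0.13 to 0.18. Ctnnd1, which holds cadherins at the membrane, was lowest in replicate 2 of both groups (269.2 and 248.0 CPM, against 303.0 to 339.5 CPM in the other 4 libraries), and its log2 fold change was 0.08. Of the partners outside the members, beta-catenin (Ctnnb1) was at 738.7, 702.2 and 734.5 CPM against 747.7, 706.4 and 506.9 CPM, where vector replicate 3 was the lowest, with a log2 fold change of 0.15 (adjusted p = 0.921, edgeR). N-cadherin (Cdh2) was at 52.5, 108.4 and 55.6 CPM against 51.2, 44.9 and 53.2 CPM, so that only NR4A1 replicate 2 stood above the control range by more than a few CPM.

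In the tight junction, Marveld2 was the member with the largest value above the control level. Marveld2 (tricellulin, chr13:100595957-100616971, minus strand), which seals the points where 3 cells meet, was at 7.64, 8.10 and 8.78 CPM in the NR4A1 overexpression group and 6.89, 5.55 and 4.19 CPM in the control group. All 3 NR4A1 libraries lay above the control libraries, which spread more widely (8.17 CPM ± 0.574 against 5.54 CPM ± 1.35, SD, n = 3). The log2 fold change was 0.56 (standard error 0.211, 95% interval 0.06 to 1.06), with an edgeR p of 0.0321 before and 0.720 after adjustment. It rested on 74 to 152 counts per library, and without vector replicate 3 it was 0.39, with an unadjusted edgeR p of 0.105.

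Occludin (Ocln, chr13:100496507-100552718), the related MARVEL protein whose gene lies near Marveld2 on the same strand, was at 27.7, 28.5 and 29.1 CPM against 25.9, 28.3 and 32.9 CPM. The NR4A1 libraries lay inside the control range, and the log2 fold change was -0.03 (95% interval -0.27 to 0.21). Marveld3, the remaining MARVEL protein, had a log2 fold change of 0.01 (95% interval -0.56 to 0.59), or 0.21 without NR4A1 replicate 2. F11r was at 240.6, 249.9 and 251.4 CPM against 263.7, 258.2 and 256.6 CPM, a small shift without overlap, with a log2 fold change of -0.07 (adjusted p = 0.917, edgeR).

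In the scaffolds under the tight junction the groups overlapped. Tjp1 was at 284.2, 203.6 and 252.2 CPM against 279.5, 216.4 and 283.8 CPM, lowest in replicate 2 of both groups, and its log2 fold change was -0.08 (0.04 without NR4A1 replicate 2). Cingulin (Cgn), which ties ZO proteins to actomyosin, was at 19.4, 19.2 and 23.5 CPM against 24.5, 21.3 and 25.1 CPM, with overlap and a log2 fold change of -0.19 (adjusted p = 0.849, edgeR). Tjp3 (ZO-3) had a log2 fold change of 0.14 (95% interval -0.24 to 0.53).

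The claudins lay on both sides of the control level and were the least precisely measured class. Of the 6 tested, 4 had a log2 fold change above 0 and 2 below, with a median of 0.07, and none had an interval within a 1.5-fold change. Cldn1, a sealing claudin, had 0, 9 and 6 counts in the NR4A1 overexpression group and 11, 12 and 14 counts in the control group. The groups did not overlap, but NR4A1 replicate 2 exceeded the mean of replicates 1 and 3 by a ratio of 3.09 in CPM, and the log2 fold change was -1.22 with a 95% interval from -2.93 to 0.49 (adjusted p = 0.840, edgeR). Without NR4A1 replicate 2 it was -1.92 (unadjusted p = 0.0496, adjusted p = 0.606, edgeR). Without NR4A1 replicate 1, the library with 0 counts, it was -0.69 (unadjusted p = 0.14, adjusted p = 0.868, edgeR). Over the 12 alternatives that held Cldn1 it ranged from -1.92 to -0.17.

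Cldn2, the claudin of cation pores, was counted 40, 48 and 10 times against 27, 25 and 22 times, so that NR4A1 libraries lay on both sides of the control range (log2 fold change 0.51, 95% interval -0.76 to 1.77). Cldn12 showed the same spread at a higher level, with 40.5, 44.2 and 20.4 CPM against 32.6, 30.5 and 34.4 CPM and a log2 fold change of 0.11. In both genes NR4A1 replicate 3 was the lowest of all 6 libraries. Without it the log2 fold changes were 0.95 for Cldn2 and 0.37 for Cldn12 (edgeR adjusted p = 0.629 and 0.567). Without NR4A1 replicate 2 they were 0.17 and -0.10. Cldn3, Cldn15 and Cldn23 had log2 fold changes of -0.16, 0.03 and 0.11, with overlap in each. Without NR4A1 replicate 2, those of Cldn3, Cldn15 and Cldn23 were -0.23, -0.26 and 0.30.

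In the desmosome, the plakin genes Evpl and Ppl had the smallest p-values of all members. Envoplakin (Evpl, chr11:116220559-116238077, minus strand) and periplakin (Ppl, chr16:5086291-5132481, minus strand) are partner proteins that form dimers and link desmosomes to keratin filaments. Evpl was at 71.9, 64.6 and 71.6 CPM in the NR4A1 overexpression group and 89.7, 93.7 and 95.6 CPM in the control group (69.4 CPM ± 4.16 against 93.0 CPM ± 3.02, SD, n = 3). The gap between the groups was wider than the range inside either. Its log2 fold change was -0.42 (standard error 0.0812, 95% interval -0.61 to -0.23), 0.746-fold of the control level, with an edgeR p of 0.00116 before and 0.178 after adjustment. The adjusted p ranged from 0.00377 to 0.737 over the 15 alternatives, and the lowest, from DESeq2, was the sole one under 0.05. A 2-fold change lay outside the interval.

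Ppl was at 150.5, 139.8 and 150.7 CPM against 181.6, 174.8 and 200 CPM (147.0 CPM ± 6.21 against 185.5 CPM ± 13.02, SD, n = 3). All 3 NR4A1 libraries lay below the control libraries, as for Evpl, and NR4A1 replicate 2 was again the lowest. The log2 fold change was -0.34 (standard error 0.0786, 95% interval -0.52 to -0.15), 0.792-fold of the control level, with an edgeR p of 0.00352 before and 0.313 after adjustment. Without NR4A1 replicate 2 the log2 fold changes were -0.37 for Evpl and -0.30 for Ppl (edgeR adjusted p = 0.261 and 0.471).

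**Figure D4:**
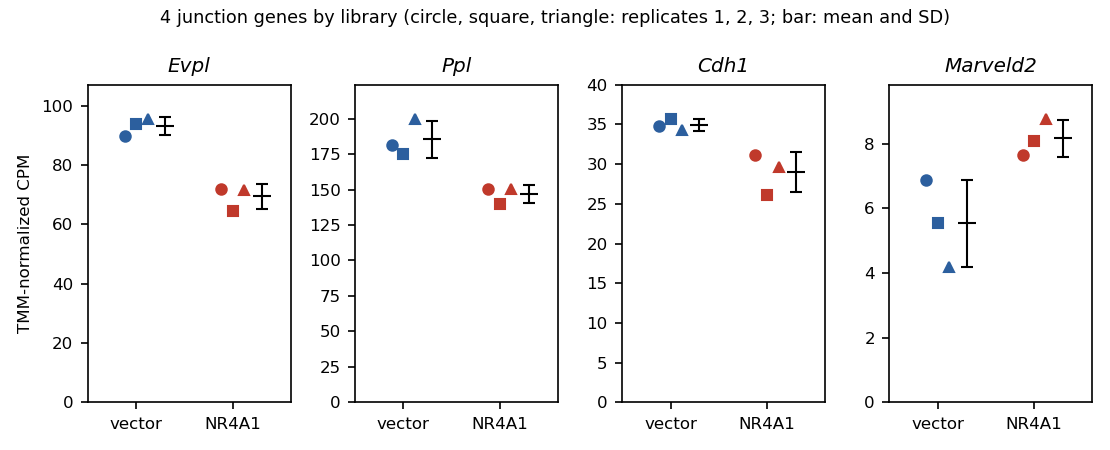
TMM-normalized CPM of the 4 genes with an unadjusted edgeR p under 0.05, with a point per library (circle, square and triangle for replicates 1, 2 and 3) and bars for the mean and SD of each group of 3. In Evpl, Ppl and Cdh1 the NR4A1 libraries lie below the control libraries, in Marveld2 they lie above, and none of the 4 genes passed the threshold.

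In the other tested desmosomal plaque genes the groups overlapped. Jup, which binds both desmosomal cadherins and E-cadherin, was at 168.9, 201.3 and 215.1 CPM against 202.9, 226.2 and 227.8 CPM, with overlap and a log2 fold change of -0.17 (adjusted p = 0.854, edgeR). Desmoplakin (Dsp), the main link to keratin, was lowest in replicate 2 of both groups (82.9 and 95 CPM, against 115.5 to 126.3 CPM in the other 4 libraries), with a log2 fold change of -0.11 (0.04 without NR4A1 replicate 2). Pkp2 and Pkp4 had log2 fold changes of -0.09 and 0.12, whose 95% intervals reached from -0.29 to 0.12 and from -0.08 to 0.32. In all, 5 of the 6 tested desmosome genes were below the control level, with a median log2 fold change of -0.14.

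Of the polarity genes, 4 of 5 were below the control level, with a median log2 fold change of -0.13, and none had an unadjusted p under 0.05. Crb3, the Crumbs protein of the apical membrane, was at 1.89, 2.68 and 2.25 CPM against 2.95, 3.28 and 2.72 CPM. Its groups were apart by a small margin, on 28 to 55 counts per library, and the log2 fold change was -0.39 (95% interval -0.91 to 0.14), or -0.52 without NR4A1 replicate 2. Scrib, the basolateral scaffold, was at 141.0, 162.0 and 159.3 CPM against 165.6, 163.1 and 183.3 CPM, also without overlap, with a log2 fold change of -0.15 (adjusted p = 0.840, edgeR).

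Pard3 (Par3), the apical scaffold, was at 28.3, 40.8 and 29.2 CPM against 29.3, 29.4 and 27.4 CPM. NR4A1 replicate 2 alone was above the rest, and the log2 fold change was 0.19 (95% interval -0.16 to 0.54). Without that library it was 0.00. Its partner Pard6b and the basolateral protein Llgl2 had log2 fold changes of -0.13 and -0.03, with overlap in both.

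A wider list of 60 other junction and polarity genes was compared in the same way. Of these, 38 were tested, 0 passed the threshold, and the median log2 fold change was 0.00. At an unadjusted p under 0.05, 2 of the 38 were higher and 0 lower, where 4.02% and 2.44% of all tested genes were. Of the 38, only Arvcf had every NR4A1 library below every control library, as 28.6% of the members and 6.22% of all tested genes had. Cgnl1, Jam3 and Nectin4 had every NR4A1 library above every control library, as 3.57% of the members and 6.69% of all tested genes had. Cgnl1 (paracingulin), a scaffold of both adherens and tight junctions, was at 98.8, 118.6 and 97.7 CPM against 87.6, 76.2 and 82.1 CPM, without overlap (log2 fold change 0.36, adjusted p = 0.517, edgeR). Nectin4 was counted 17, 16 and 12 times against 5, 2 and 8 times, a log2 fold change of 1.66 on few counts (adjusted p = 0.530, edgeR).

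Of 16 transcription regulators of epithelial junction genes, 10 were tested and 0 passed the threshold, with 5 log2 fold changes above 0 and 5 below. The groups did not overlap for Zeb2 and Esrp2, which were higher, and for Grhl3, which was lower, where 6.69% and 6.22% of all tested genes lay apart in these directions. Zeb2, a repressor of Cdh1, was at 42.7, 46.9 and 42.2 CPM against 35.4, 24.3 and 32.2 CPM. Its log2 fold change was 0.52 (unadjusted p = 0.00767, adjusted p = 0.454, edgeR). Grhl3, a Grainyhead factor of epithelial barriers, was at 16.8, 17.2 and 18.5 CPM against 20.3, 21.01 and 20.2 CPM, with a log2 fold change of -0.22 (adjusted p = 0.724, edgeR). Esrp2, a splicing regulator of epithelial cells, was at 3.58, 6.32 and 3.81 CPM against 3.12, 3.22 and 2.49 CPM, highest in NR4A1 replicate 2 (log2 fold change 0.63, adjusted p = 0.784, edgeR). Grhl2, the relative of Grhl3, known for activating Cdh1 and Cldn4, had 2 to 7 counts per library and was not tested.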

How the data were processed

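Strand-specific libraries were sequenced from 3 NR4A1 overexpression and 3 vector control samples, grouped by the treatment label. The study's methods name a total RNA kit and the labels an mRNA isolation step, so which RNA was captured is unclear. The authors deposited 1 table with read counts per gene and, for the same libraries, FPKM. The submitters' notes name HISAT2 2.0.4 and GRCm38.p4, and the counting program is not given in the sources used here. The deposited FPKM values were used for levels and, as an alternative, in limma.

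Counts were scaled with TMM, filtered with filterByExpr and compared with edgeR 4.0.16 (quasi-likelihood test, Benjamini-Hochberg adjustment over 12941 genes, R 4.3.3). Standard errors and 95% intervals came from the same fit. The threshold was 0.05 for the adjusted p together with a change of 2-fold or more. On simulated counts for 12941 genes, this test recovered 165 of 200 genes changed 3-fold, with 6 false calls. The simulation did not cover smaller changes, such as those of Evpl, Ppl and Cdh1. DESeq2 1.42.0, limma 3.58.1, other scalings and filters, the replicate block and each library left out were alternatives. The counts at an unadjusted p, those without overlap and the second gene length were added after seeing the data. CPM in the text is TMM-normalized. Replicate pairs within a group differed by more than counting error (chi-square per degree of freedom 9.36 to 41.8).

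The members and lists were chosen with earlier results of these data known. Values by library were given for members with an unadjusted p under 0.05, members without overlap, the 10 largest log2 fold changes, the highest levels, and members set apart in NR4A1 replicate 2. The sparse members, other members with overlap, Cdh2, Zeb1, Snai1, Snai2, Esrp2 and Grhl2 were added after their values were seen. RefSeq promoters were read with Python 3.11.15. Protein sequences were not used here.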

Additional observations from a re-analysis of the deposited data

How the results depend on the processing

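No member passed the threshold under any alternative, and of 411 member values recomputed, 20 changed direction, all of genes within 1 standard error of 0. The median log2 fold change of the members stayed between -0.10 and -0.04. Of all tested genes, 22 were higher and 0 lower; DESeq2 gave 71 and 2, a mean of at least 10 counts gave 8 higher, limma on FPKM gave 7 (pseudocount 1, with or without the filter) and 8 (pseudocount 0.1), the unadjusted p with a 2-fold change gave 144 and 17, and no fold threshold gave 1 lower. The replicate block gave 5 higher genes, and the number of members lower at an unadjusted p under 0.05 was 5 with the block and 5 with limma without the filter (3 in the main comparison). Same-numbered libraries had correlations of deviations of -0.0111, -0.046 and 0.246 for replicates 1 to 3. The sources used here do not say whether same-numbered libraries shared a batch, and this was not tested. With each library left out in turn, 3 to 25 genes were higher and 0 to 3 lower, members higher at an unadjusted p under 0.05 numbered 0 to 2 (Cldn2 and Cldn12 without NR4A1 replicate 3), and members lower with a 2-fold change numbered 0 to 1, the 1 being Cldn1 without NR4A1 replicate 2. The causes were not tested. Depth limits the 11 sparse genes and Cldn1, whose counts lie near the floor of 3 that was set.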
